A study of Macaca mulatta with 38 samples.

Results

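The subunit genes of the glutamate, GABA and glycine receptors were followed as fetal macaque cortical neural stem cells differentiated in culture. The members were taken by gene symbol alone and number 52 of the 34619 genes in the count table: 4 AMPA, 5 kainate, 7 NMDA and 2 delta receptor genes, 8 metabotropic glutamate receptor genes, 19 GABA-A, 2 GABA-B and 5 glycine receptor genes. Of these, 44 had enough reads to be tested. The other 8 were GABRA6, with 0 reads in every library, and GABRD, GABRP, GABRR1, GABRR2, GABRR3, GLRA1 and GLRA4, none of which reached more than 12 reads in any library.

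Glutamate and GABA are the main excitatory and inhibitory transmitters of the cortex, and glycine is an inhibitory transmitter that also acts in the immature cortex. AMPA, kainate, NMDA, GABA-A and glycine receptors are ion channels assembled from several subunits, so the mix of subunits a cell makes sets the properties of its channels, whereas metabotropic glutamate and GABA-B receptors act through G proteins. In the developing brain receptors for GABA and glutamate are present on progenitors and young neurons before synapses form, and NMDA receptors are known for a change from GluN2B to GluN2A as the cortex matures.

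The study sequenced 38 poly(A) libraries from wild-type rhesus macaque (Macaca mulatta) fetal cortex, in 4 culture series. Anterior and Posterior cortex was taken at embryonic day 42 (E42), and Frontal and Occipital cortex at embryonic day 77 (E77). The cells of all series were kept with FGF2 in an N2 medium for the stem phase (libraries of days 1, 3 and 5). FGF2 was then withdrawn and the medium changed to NeuroBasal with B27, BDNF and NT-3 for the transition (days 6, 7 and 8) and the terminal phase (days 11, 14 and 17, and day 20 at E77 only). Each series gave 1 library a day, made from 2 wells, so the days of a phase stand as its replicates: 3 libraries in each group, and 4 in the E77 terminal groups. The labels do not say that these libraries came from separate animals or cultures, and the p-values measure only the spread between days of a series. Age and region cannot be told apart from the fetus, the dissection or the culture run of each series.

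The libraries held 20149635 to 56363300 counted reads, with a median of 27597365.5. Levels are given as CPM, reads scaled to a common library total with TMM factors, when libraries are compared for 1 gene, and as deposited RPKM, which also corrects for gene length, when genes are compared. In these bulk libraries fewer cells of a type and less RNA per cell cannot be told apart. The E42 Anterior libraries stood apart by mesenchymal markers (collagens and others), at 16603 to 39303.5 CPM in the stem and terminal phases against at most 354 CPM in the same phases of the other series. Counts of members averaged over series or ages are therefore also given without that series, and averages of single genes include it unless stated. The share of all genes that passed was not calculated for these subsets, so their counts of members have no background beside them. Of 51 members found in the RefSeq table (T2T-MMU8v2.0 assembly), 29 overlap another annotated gene. The libraries were strand-specific but the strand setting of the counting is not given, so reads from such neighbours may be included.

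From the stem to the terminal phase most receptor genes rose. Averaged over the 4 series with equal weights, 30 of the 44 tested members rose, 4 fell and 10 did not pass (edgeR quasi-likelihood test, Benjamini-Hochberg adjusted p under 0.05 over all 20794 genes tested). Over all genes tested, 62.4% passed in either direction, 31.9% upward and 30.4% downward. The members passed in 77.3% of cases and were mostly higher, 68.2% against that 31.9%. Their median log2 change was 1.32, and that of all genes was 0.00. The median stayed at 1.32 when members with no reads in some stem groups were set to the smallest change their counts allow. Without E42 Anterior 29 rose and 4 fell.

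Cell type markers moved with this comparison. All 10 neuron markers rose (median log2 change 2.39), and their sum was 1472 to 3159 CPM at E42 and 1950 to 2638 CPM at E77 in the stem phase, and 4403 to 6337 CPM and 3965 to 4852 CPM in the terminal phase, without overlap at either age. Of 6 astrocyte markers 5 rose and 0 fell (median 0.58), and their sum went from 578 to 1683 CPM to 1311 to 2187 CPM at E42 and from 2281 to 6446 CPM to 3649 to 9357 CPM at E77. Of 6 radial glia markers 4 fell and 2 rose (median -0.44), with sums of 4148 to 6454 CPM and 3764 to 8325 CPM in the stem phase and 2832 to 4173 CPM and 3494 to 4882 CPM in the terminal phase. Of 7 interneuron markers 5 rose (median 1.15), and of 7 mesenchymal markers 6 fell (median -1.42). The part of these markers in the change of the receptor genes was not tested.

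The rise was unevenly shared among series. In each of the 4 series 16 members were higher, among them GRIA2, GRIK3, GRIN2A, GRIN2B, GRM3, GRM4, GRM6, GABRA2, GABRA3, GABRB2, GABBR2, GLRA2 and GLRA3. GRM6 had 3 reads or fewer in the stem group of every series, and GRM4 and GLRA2 in that of E77 Frontal, so the size of those changes is uncertain. Another 17 members were higher in 1 to 3 series and lower in 0, and 4 (GABRA4, GABRB1, GABRG3 and GABRQ) were higher in some and lower in others. GRIK5, GRIN2D, GRM7 and GRM8 were lower in at least 1 series and higher in 0, and GRIK4, GRM5 and GLRB were called in no series. The share of all genes with each of these patterns over the series was not calculated, so these counts have no background beside them. By series, 26 members rose and 1 fell in E42 Anterior (of all genes 34.1% passed, 17.9% upward and 16.2% downward), 31 rose and 0 fell in E42 Posterior (39.4%, 21.5% and 17.8%), 23 rose and 5 fell in E77 Frontal (43.2%, 22.5% and 20.7%), and 25 rose and 5 fell in E77 Occipital (41.2%, 21.6% and 19.6%).

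**Figure D1:**
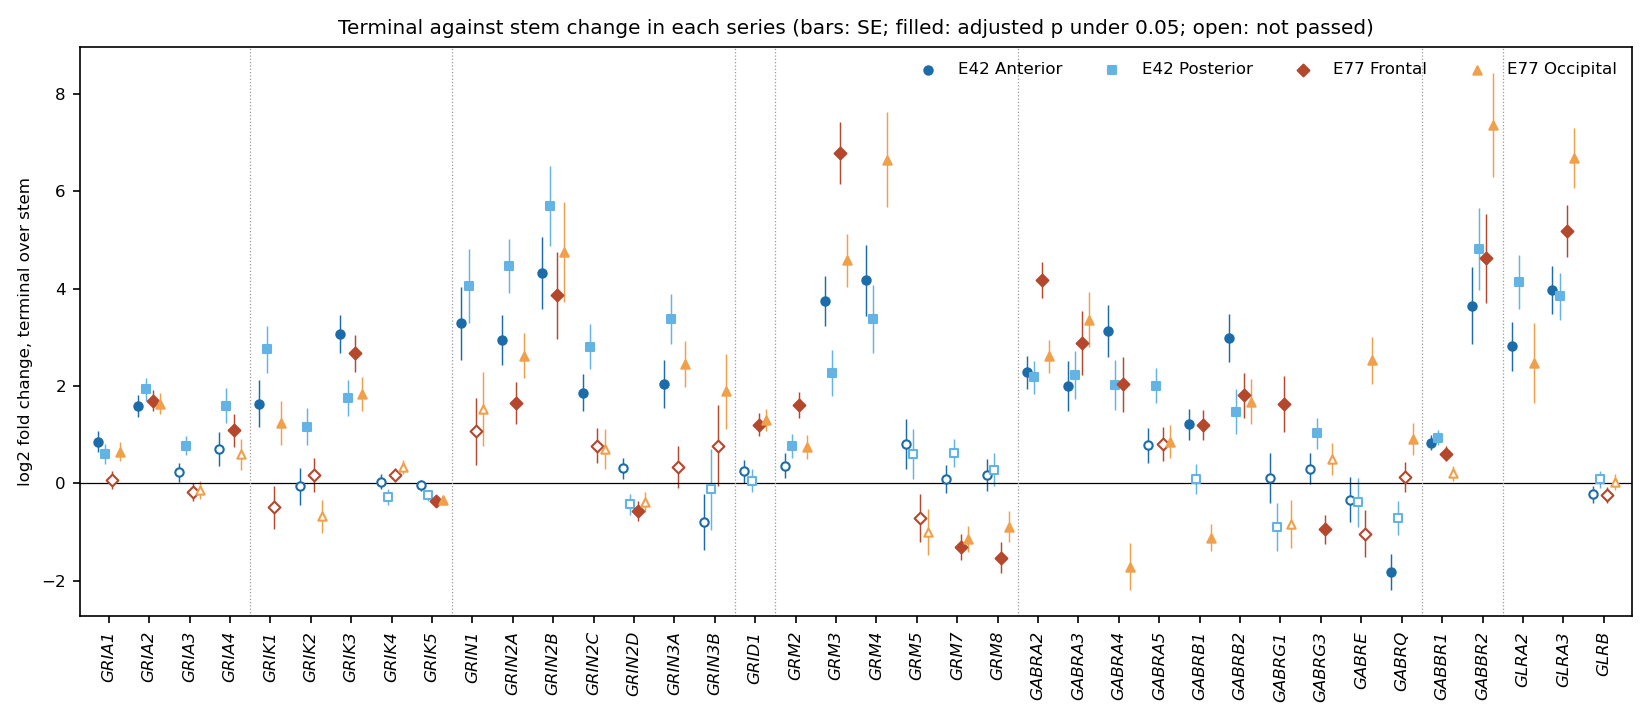
Terminal over stem log2 fold change (vertical axis) of 38 tested members in each of the 4 series, ordered by receptor class with dotted lines between classes; bars are the SE of the fitted change, filled symbols passed at an adjusted p under 0.05 and open symbols did not. GRM6 is left out because a stem group had 0 reads, and 2 points are left out because the stem group had 3 reads or fewer; most filled symbols lie above 0, and the E77 series hold the filled points below 0 for GRIK5, GRIN2D, GRM7 and GRM8.

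The timing differed among members. In the transition libraries, 1 to 3 days after FGF2 withdrawal, 17 members were already higher than in the stem phase and 2 lower, a share of 43.2% beside 41.6% of all genes, with 38.6% against 21.6% upward and 4.55% against 20% downward. From transition to terminal, 27 rose and 4 fell, where 41.9% of all genes passed, 22.7% upward and 19.2% downward. Without E42 Anterior 15 were higher and 3 lower in the transition than the stem phase, and 25 rose and 4 fell from transition to terminal. GRM5, a Gq-coupled metabotropic receptor, went both ways. Its level in E77 Occipital was 67.3, 24.3 and 14.5 CPM on days 1, 3 and 5, 5.39 to 10.7 CPM in the transition, and 12.1 to 25.2 CPM from day 11 on. Over the mean of the series it changed by -1.31 (SE 0.27, adjusted p = 0.00024) from stem to transition and by 1.23 (SE 0.26, adjusted p = 0.00034) from there to the terminal phase. Terminal and stem levels of GRM5 differed by -0.08 (SE 0.25, adjusted p = 0.81). GRIN2D rose by 0.38 (SE 0.11, adjusted p = 0.0045) into the transition and then fell by 0.65 (SE 0.10, adjusted p = 8.3e-06).

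**Figure D2:**
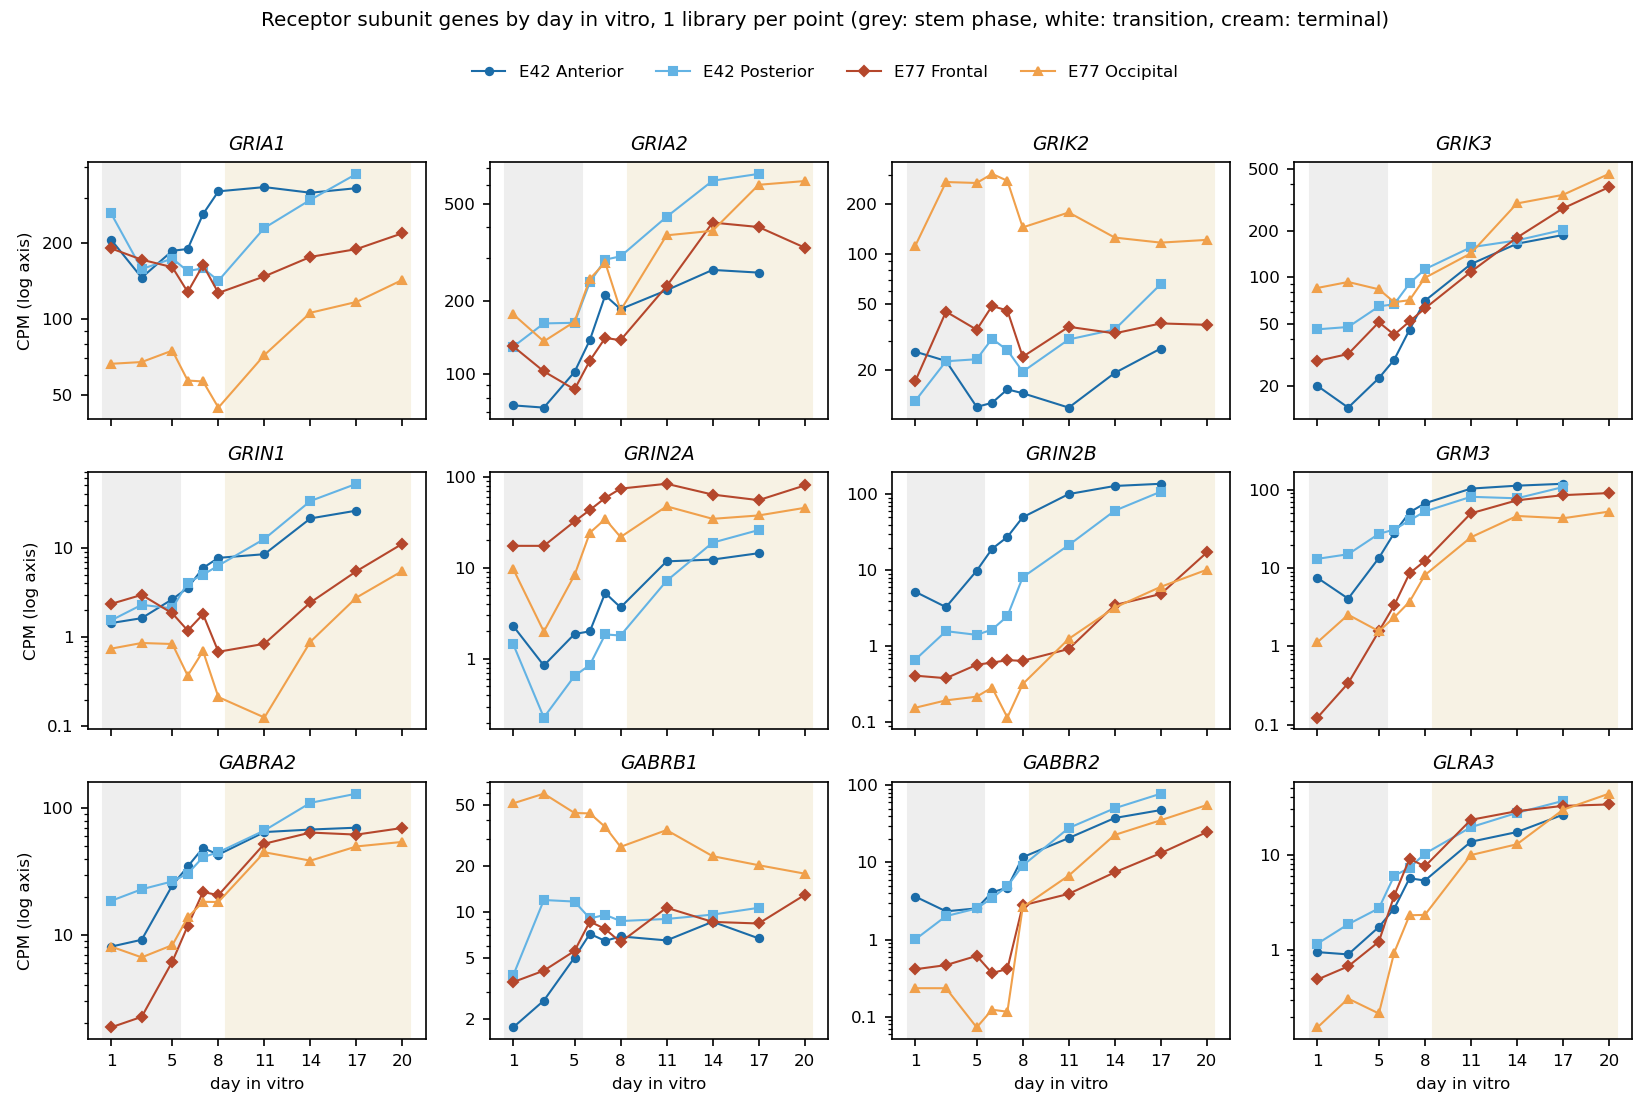
CPM on a log axis (vertical) by day in vitro (horizontal) for 12 receptor genes, each point 1 library and each line 1 of the 4 series; grey shading is the stem phase, white the transition and cream the terminal phase. GRIN2B, GRM3, GABRA2, GABBR2 and GLRA3 climb in every series, while GRIK2 and GABRB1 are highest in E77 Occipital before the terminal phase.

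AMPA receptors carry fast excitatory transmission, and GRIA2 encodes GluA2, the subunit that limits calcium entry. GRIA2 had the highest mean RPKM of the 52 members over all libraries, 43.9, with GRIK5 and GRIA1 next at 28.1 and 28.0 RPKM. GRIA2 stood at 74.4, 72.8 and 102 CPM on days 1, 3 and 5 of E42 Anterior and at 221, 268 and 261 CPM on days 11, 14 and 17. In E42 Posterior it went from 129, 161 and 162 CPM to 442, 622 and 663 CPM. In E77 Frontal the levels of GRIA2 were 130, 103 and 86.5 CPM and then 229, 419, 401 and 330 CPM, and in E77 Occipital 176, 136 and 164 CPM and then 371, 387, 598 and 620 CPM. All 14 terminal libraries lay above all 12 stem libraries. The mean log2 change of GRIA2 was 1.71 (SE 0.11, adjusted p = 1.1e-13), and the changes by series lay between 1.59 and 1.93.

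GRIA1, the GluA1 gene, moved less than GRIA2. Its mean log2 change was 0.55 (SE 0.10, adjusted p = 2.5e-05), and in E77 Frontal, where stem levels were 160 to 191 CPM and terminal levels 148 to 219 CPM, it was 0.07 (SE 0.19, adjusted p = 0.80). The GRIA2 to GRIA1 ratio in RPKM was higher in the terminal than the stem libraries of each series and went from a median of 0.531 to 0.844 (Anterior) and 0.995 to 2.05 (Posterior) at E42, and from 0.635 to 1.96 (Frontal) and 2.32 to 5.03 (Occipital) at E77. The stem and terminal ranges of this ratio did not overlap in any series. GRIA4 rose by 1.0 (SE 0.17, adjusted p = 9.7e-06) on average. GRIA3 differed by 0.17 (SE 0.10, adjusted p = 0.12) between the terminal and stem phases, and it rose by 0.47 (SE 0.10, adjusted p = 0.00028) into the transition.

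Kainate receptors modulate release and excitability, and 2 of their 5 genes rose, 1 fell and 2 did not pass. In the same comparison 31.9% of all genes rose and 30.4% fell. GRIK3 (GluK3) stood at 14.4 to 22.3 CPM in the stem phase of E42 Anterior and at 122, 165 and 188 CPM on days 11, 14 and 17. In E77 Occipital it stood at 83.8 to 93.4 CPM and then at 143, 300, 341 and 466 CPM on days 11 to 20. The 14 terminal libraries lay above the 12 stem libraries, and the mean log2 change of GRIK3 was 2.33 (SE 0.19, adjusted p = 9.0e-12). GRIK1 rose by 1.28 (SE 0.23, adjusted p = 1.7e-05) from levels of 0.544 to 3.22 CPM. GRIK5, a subunit that works only together with GluK1 to GluK3, fell by 0.25 (SE 0.05, adjusted p = 0.00019), and its share of the summed kainate receptor RPKM went from 75.3% to 48.7% in E42 Anterior and from 46.9% to 33.0% in E77 Occipital. GRIK2 and GRIK4 differed by 0.15 (SE 0.18, adjusted p = 0.50) and 0.06 (SE 0.08, adjusted p = 0.48).

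NMDA receptors need the GluN1 subunit, encoded by GRIN1, and take a GluN2 or GluN3 partner that sets their kinetics. Of the 7 genes 5 rose, 1 fell and 1 did not pass in the average over series, where 31.9% of all genes rose and 30.4% fell. GRIN1 stood at 1.44, 1.63 and 2.66 CPM in the stem phase of E42 Anterior and at 8.49, 21.4 and 26.1 CPM in the terminal phase. In E42 Posterior it went from 1.54, 2.30 and 2.10 CPM to 12.6, 33.5 and 52.2 CPM. At E77 it was 2.35, 2.98 and 1.85 CPM in Frontal stem libraries and 0.843, 2.45, 5.48 and 11.1 CPM on days 11, 14, 17 and 20, and in Occipital 0.743, 0.860 and 0.838 CPM and then 0.126, 0.889, 2.78 and 5.52 CPM. The E42 groups of GRIN1 did not overlap, whereas the day 11 library of each E77 series lay below all its stem libraries. The log2 change passed in E42 Anterior (3.28, SE 0.74, adjusted p = 0.0010) and Posterior (4.05, SE 0.76, adjusted p = 0.00012). It was 1.07 (SE 0.68, adjusted p = 0.21) in E77 Frontal and 1.53 (SE 0.76, adjusted p = 0.11) in E77 Occipital.

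GRIN2B, the GluN2B gene, climbed in every series but from and to very different levels. It stood at 5.24, 3.29 and 9.92 CPM in the stem phase of E42 Anterior and at 101, 129 and 138 CPM in the terminal phase. In E42 Posterior it went from 0.672, 1.59 and 1.42 CPM to 21.6, 61.1 and 109 CPM. In E77 Frontal it went from 0.413, 0.383 and 0.575 CPM to 0.927, 3.51, 4.91 and 17.2 CPM, and in E77 Occipital from 0.156, 0.196 and 0.219 CPM to 1.26, 3.25, 6.10 and 10.2 CPM. Stem and terminal groups did not overlap within any series. The mean log2 change of GRIN2B was 4.66 (SE 0.43, adjusted p = 1.8e-10). GRIN2A, the GluN2A gene, rose by 2.92 (SE 0.25, adjusted p = 3.0e-11), GRIN2C by 1.54 (SE 0.20, adjusted p = 1.1e-07) and GRIN3A by 2.05 (SE 0.24, adjusted p = 1.4e-08). GRIN2D fell by 0.27 (SE 0.10, adjusted p = 0.025), a call that ended without the day 5 stem library of E77 Frontal (-0.23, adjusted p = 0.064). Without E42 Anterior the change of GRIN2D was -0.46, which passed.

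The make-up of the GluN2 mRNA changed with differentiation and differed by age. In the stem phase GRIN2D had the largest mean share of the summed GluN2 RPKM in each series, 61.6% ± 6.1 (SD, n = 3) for Anterior and 92.6% ± 0.47 for Posterior at E42, and 59.0% ± 3.9 for Frontal and 82.3% ± 8.9 for Occipital at E77. In the terminal phase GRIN2B led at E42, with 58.1% ± 3.1 in Anterior and 54.5% ± 16 in Posterior, and GRIN2A led at E77, with 55.1% ± 2.7 in Frontal and 47.3% ± 6.0 in Occipital (n = 4). The GRIN2A to GRIN2B ratio in RPKM was 0.0767 to 0.268 in the E42 terminal libraries and 3.59 to 72.6 in those of E77, with no overlap. At E77 the terminal ranges, 3.74 to 72.6 in Frontal and 3.59 to 30.2 in Occipital, overlapped the stem ranges of 33.9 to 45.2 and 8.21 to 50.2, and their medians were 11.8 and 6.75 against 36.6 and 30.6. The E77 stem ratios rest on few GRIN2B reads, at 0.0353 to 0.0486 RPKM in Frontal and 0.0131 to 0.0188 RPKM in Occipital. Their size, and the difference of the medians, are therefore uncertain.

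**Figure D3:**
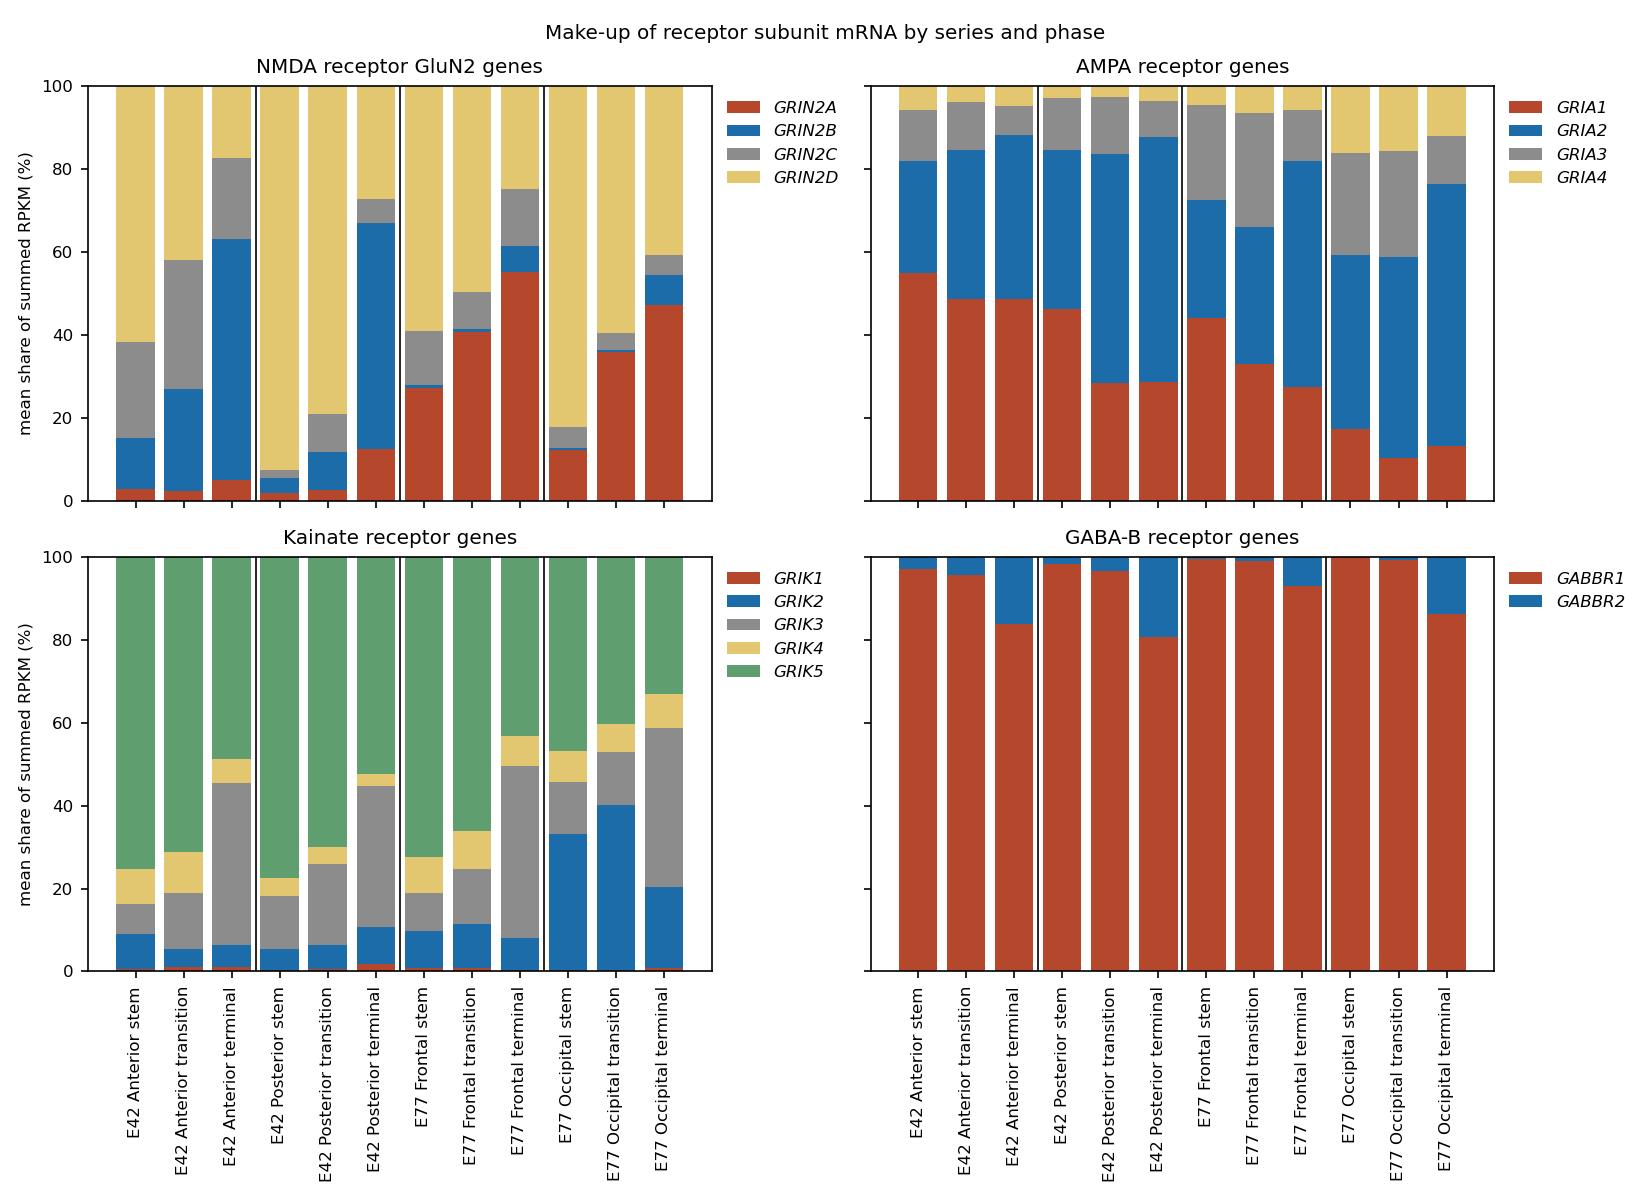
Mean share (percent, vertical) of each gene in the summed RPKM of its subunit family, for 12 groups of series and phase (horizontal): NMDA receptor GluN2 genes, and AMPA, kainate and GABA-B receptor genes. GRIN2D gives way to GRIN2B at E42 and to GRIN2A at E77, and the shares of GRIK3 and GABBR2 are larger in the terminal than the stem groups of every series.

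Delta receptors act mainly as synaptic organizers, and GRID1 rose by 0.70 (SE 0.12, adjusted p = 5.0e-06) on average. GRID1 changed by 1.21 (SE 0.23) in E77 Frontal and 1.31 (SE 0.23) in E77 Occipital, and by 0.25 (SE 0.24) and 0.05 (SE 0.24) in E42 Anterior and Posterior, where it did not pass. The difference of that change between the ages was 0.89 (SE 0.16, adjusted p = 0.00027).

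Metabotropic glutamate receptors were led by GRM3, a Gi-coupled receptor found on both neurons and astrocytes, which rose in every series. GRM3 stood at 7.51, 4.08 and 13.5 CPM in the stem phase of E42 Anterior and at 104, 113 and 119 CPM in the terminal phase, and in E42 Posterior at 13.2, 15.1 and 27.4 CPM and then 81.4, 77.9 and 108 CPM. In E77 Frontal it went from 0.124, 0.340 and 1.56 CPM to 50.1, 73.4, 85.5 and 90.9 CPM, and in E77 Occipital from 1.13, 2.54 and 1.57 CPM to 24.8, 46.3, 43.3 and 52.7 CPM. Stem and terminal levels of GRM3 were apart in each series, and its mean log2 change was 4.34 (SE 0.27, adjusted p = 1.2e-13). Its share of the class's summed RPKM grew from 1.90% to 60.7% in E77 Frontal.

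GRM4, a presynaptic Gi-coupled receptor, followed the same course. It stood at 1.12 to 2.99 CPM in E42 Anterior stem libraries and at 25.2, 43.2 and 48.1 CPM in the terminal phase, a log2 change of 4.18 (SE 0.73, adjusted p = 6.4e-05). In E77 Frontal 2 reads were counted in the stem phase against 3268 in the terminal phase, a ratio of 1070 with an exact 95% counting interval of 296 to 8836 that covers counting error only. GRM2 rose by 0.87 (SE 0.13, adjusted p = 4.7e-07). GRM7 and GRM8, presynaptic receptors of the same group as GRM4, fell on average, GRM7 by 0.43 (SE 0.14, adjusted p = 0.0072) and GRM8 by 0.49 (SE 0.16, adjusted p = 0.011). GRM7 fell by 1.30 in E77 Frontal and 1.14 in E77 Occipital (SE 0.26 each), while in E42 Posterior, where it went from 14.3 to 20.9 CPM to 18.2 to 34.2 CPM, its change was 0.62 (SE 0.28, adjusted p = 0.077). The difference in the GRM7 change between ages was -1.44 (SE 0.28, adjusted p = 0.00055). GRM6 stayed at or below 1.27 CPM, and it had 0 reads in the E77 Frontal stem libraries, so its rise there was at least 2.20-fold against a floor of 3 reads per library.

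GABA-A receptors are chloride channels, most often of alpha, beta and gamma subunits. In the average over series 9 of the 13 tested members of this class rose, 0 fell and 4 did not pass, where 31.9% of all genes rose and 30.4% fell. Among the GABA-A genes GABRB2, a beta subunit gene, rose by 1.99 (SE 0.23, adjusted p = 1.8e-08).

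GABRB1 went different ways in different series. In E77 Occipital it stood at 51.0, 59.0 and 44.1 CPM in the stem phase, 43.9, 35.8 and 26.5 CPM in the transition and 34.1, 23.1, 20.1 and 17.7 CPM in the terminal phase, a log2 change of -1.11 (SE 0.28, adjusted p = 0.0018). In E42 Anterior it went from 1.76, 2.63 and 5.02 CPM to 6.5, 8.60 and 6.70 CPM, a rise of 1.21 (SE 0.32, adjusted p = 0.0041), and in E77 Frontal it rose by 1.21 (SE 0.31, adjusted p = 0.0020). The average over series, 0.35 (SE 0.15, adjusted p = 0.046), combines these opposite directions, and without E42 Anterior it was 0.06 (adjusted p = 0.78) and with DESeq2 size factors 0.33 (adjusted p = 0.057). In the E77 Occipital stem libraries GABRB1 held 88.2% ± 7.8 of the summed beta subunit RPKM (n = 3), against 13.2% ± 1.5 in E42 Anterior.

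Among alpha subunits, GABRA2 and GABRA5, genes of receptors common in fetal brain, held most of the RPKM in all 12 groups. GABRA2 rose by 2.81 (SE 0.17, adjusted p = 7.7e-14), with all 14 terminal libraries (38.6 to 131 CPM) above all 12 stem libraries (1.86 to 26.5 CPM). GABRA5 rose by 1.11 (SE 0.18, adjusted p = 2.7e-06) and GABRA3 by 2.62 (SE 0.28, adjusted p = 1.7e-09). The share of GABRA5 in alpha RPKM went from 83.8% ± 8.7 to 36.2% ± 7.9 in E77 Frontal while that of GABRA2 went from 12.8% ± 9.0 to 59.4% ± 9.2. GABRA4 rose in 3 series and was lower in E77 Occipital, where day 1 stood at 13.0 CPM, days 3 and 5 at 3.60 and 1.42 CPM and the terminal libraries at 1.13 to 2.28 CPM (-1.71, SE 0.48, adjusted p = 0.0055).

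Gamma subunits set synaptic placement and benzodiazepine binding. Gamma subunit RPKM was led by GABRG1 in the stem phase of 3 series, at 56.7% to 73.7%, and by GABRG3 in E77 Frontal at 79.7% ± 14. GABRQ, the theta subunit gene, fell by 1.83 (SE 0.37, adjusted p = 0.00031) in E42 Anterior and rose by 0.91 (SE 0.32, adjusted p = 0.025) in E77 Occipital. Its average over series did not pass in the main fit. That average passed as a fall under 6 other settings, among them DESeq2 size factors (-0.40, adjusted p = 0.041) and the terminal phase without day 20 (-0.50, adjusted p = 0.0082). It also passed in 10 of 26 recalculations with 1 library left out, so the call was borderline.

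GABA-B receptors work only as pairs of the products of GABBR1 and GABBR2, and these 2 genes moved by very different amounts. GABBR1 was already at 71.3 to 144 CPM in the stem phase and rose by 0.65 (SE 0.08, adjusted p = 2.3e-08). GABBR2 stood at 2.33 to 3.61 CPM in E42 Anterior stem libraries and at 20.7, 37.7 and 47.7 CPM in the terminal phase, and at 1.01 to 2.53 CPM and then 27.9, 50.4 and 77.9 CPM in E42 Posterior. In E77 Frontal it went from 0.413, 0.468 and 0.616 CPM to 3.92, 7.45, 13.2 and 24.7 CPM, and in E77 Occipital from 0.235, 0.235 and 0.0729 CPM to 6.76, 22.8, 35.3 and 55.4 CPM. All terminal libraries lay above all stem libraries, and the mean log2 change of GABBR2 was 5.11 (SE 0.46, adjusted p = 9.4e-11). In RPKM GABBR2 was the smaller of the pair, with 19.4% ± 5.6 of the GABA-B sum in E42 Posterior terminal libraries and 6.97% ± 4.4 in those of E77 Frontal.

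Among glycine receptor genes the beta subunit GLRB, which anchors the receptor at synapses, was 8.66 to 19.7 CPM in all 38 libraries and differed by -0.09 (SE 0.08, adjusted p = 0.35) between terminal and stem. The alpha subunits did change. At E42, GLRA3 went from 0.907 to 1.75 CPM to 13.7, 17.2 and 26.2 CPM in Anterior and from 1.18 to 2.75 CPM to 19.4, 27.4 and 36.5 CPM in Posterior. At E77 it went from 0.496 to 1.23 CPM to 23.1, 28.5, 32.4 and 33.5 CPM in Frontal, and from 0.156 to 0.313 CPM to 9.91, 12.9, 29.5 and 43.4 CPM in Occipital. No stem library reached the lowest terminal library, and the mean log2 change of GLRA3 was 4.92 (SE 0.27, adjusted p = 6.3e-15). GLRA2, the alpha subunit best known from fetal brain, rose by 2.82 (SE 0.50, adjusted p = 6.6e-05) in E42 Anterior and 4.13 (SE 0.55, adjusted p = 1.0e-06) in E42 Posterior. In the terminal phase GLRA3 held 52.9% ± 5.5 of glycine alpha RPKM in E42 Anterior and 60.2% ± 0.52 in E42 Posterior, against 90% ± 3.5 in E77 Frontal and 94.8% ± 3.0 in E77 Occipital.

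The fetal age comparison asked how cultures from E77 differed from those of E42. Terminal ranges and medians given for E77 include day 20, which E42 lacks, while the fit took culture day as a block. In the stem phase 14 members were higher at E77, 20 lower and 10 did not pass, where 60.2% of all genes passed, 28.8% upward and 31.4% downward. In the terminal phase 9 were higher, 25 lower and 10 did not pass, where 45% of all genes passed. Downward calls made up 24.4% of all genes and 56.8% of the members, and upward calls 20.6% of all genes. The median log2 difference of the members was -0.50 in the stem and -0.68 in the terminal phase, and that of all genes -0.03 and -0.02. Using only the posterior and occipital series, which leaves out E42 Anterior, 11 were higher and 17 lower in the stem phase and 9 higher and 22 lower in the terminal phase. Shares of all genes were not calculated for that pair. GABRB1, GABRQ, GRIA3, GRIA4, GRIK2, GRIK3, GRIK4 and GRIN2A were the 8 members higher at E77 in both phases, 16 were lower in both, and GABBR1, GRIK1, GRM5 and GRM7 were higher in the stem and lower in the terminal phase. The 4 members called in neither phase were GLRB, GRIA2, GRIN2D and GRM6. For these calls over both phases together the share of all genes was not calculated, so they have no background beside them.

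**Figure D4:**
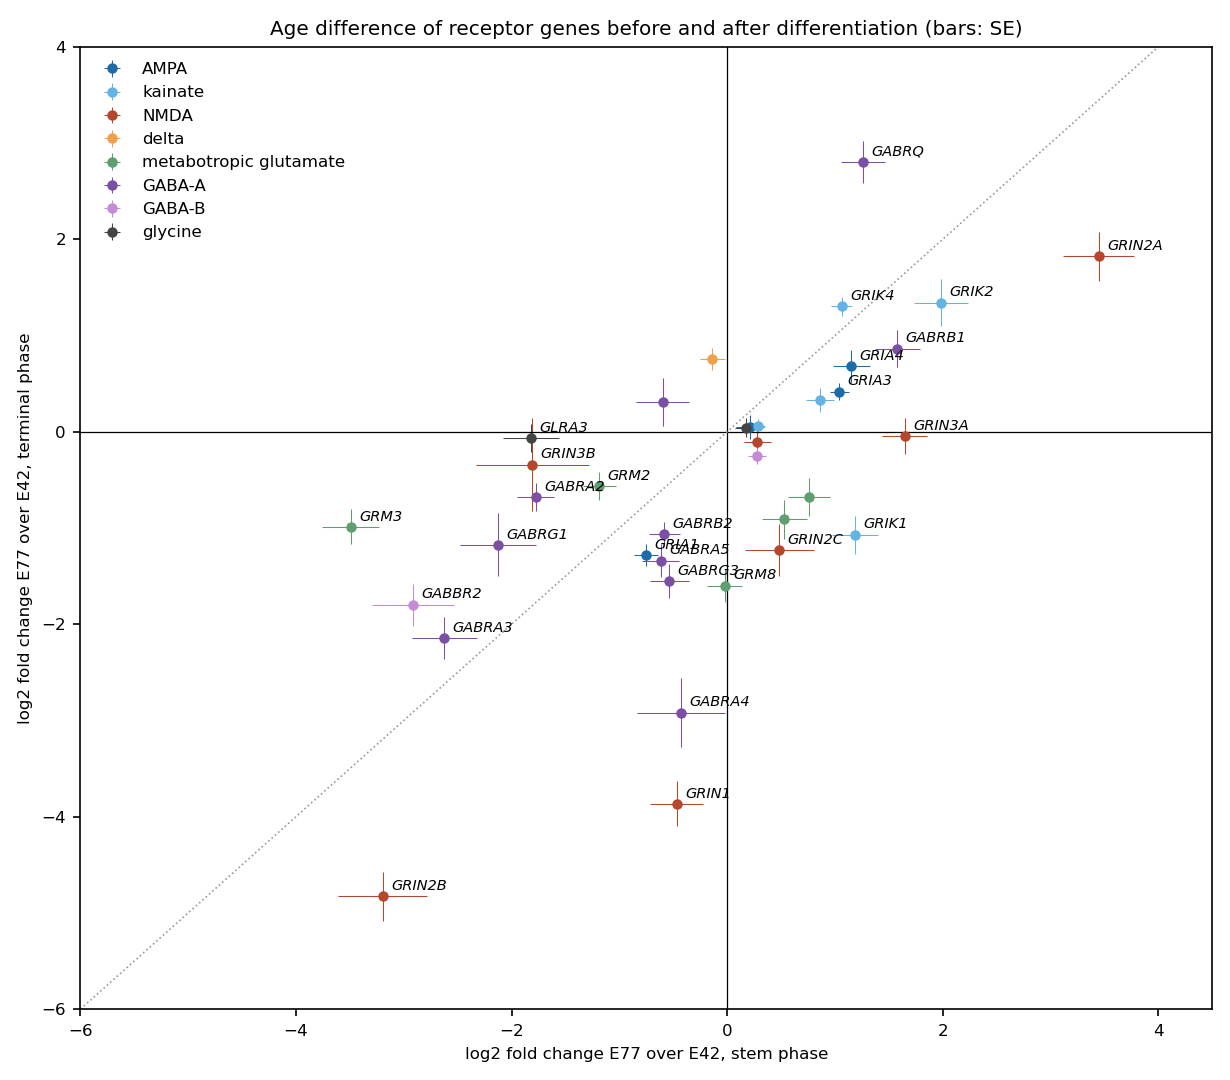
Log2 fold change of E77 over E42 in the stem phase (horizontal) and in the terminal phase (vertical) for 36 tested members, coloured by receptor class, with SE bars; the dotted line marks equal differences. GLRA2, GRM4 and GRM6 are left out because a stem group had 3 reads or fewer; GRIN2B, GRIN1 and GABRA4 lie lowest, and GABRQ and GRIN2A lie highest at the terminal phase.

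NMDA receptor genes held the largest age differences of the terminal phase in the downward direction. GRIN2B had a lowest, median and highest level of 0.927, 4.21 and 17.2 CPM in 8 E77 terminal libraries and of 21.6, 105 and 138 CPM in 6 of E42. The groups did not overlap, and the log2 difference was -4.83 (SE 0.26, adjusted p = 9.2e-13). GRIN1 had 0.126, 2.61 and 11.1 CPM at E77 and 8.49, 23.7 and 52.2 CPM at E42, groups that overlapped by the E77 Frontal library of day 20, and its log2 difference was -3.87 (SE 0.23, adjusted p = 8.5e-13). GRIN2A went the other way, with 34.5, 51.3 and 83.7 CPM at E77 and 7.19, 13.4 and 26.0 CPM at E42, a difference of 1.82 (SE 0.26, adjusted p = 4.4e-06) between groups that did not overlap. In the stem phase GRIN2A was higher at E77 by 3.45 (SE 0.33, adjusted p = 1.3e-08) and GRIN2B lower by 3.19 on the log2 scale (SE 0.41, adjusted p = 9.0e-07). By limma on log2(RPKM + 1) the stem difference of GRIN2B was -0.299 (adjusted p = 0.0855) and did not pass.

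GABA receptor genes were mostly lower at E77, and so were the metabotropic glutamate receptor genes. In the terminal phase 10 of the 13 tested GABA-A genes were lower, 2 higher and 1 did not pass, and both GABA-B genes were lower. Of 8 metabotropic glutamate receptor genes 7 were lower and 0 higher. Of 3 tested glycine receptor genes 1 was lower and 2 did not pass. Over all genes tested 24.4% were lower and 20.6% higher. GABRA4 had a lowest, median and highest level of 1.14, 2.22 and 4.34 CPM at E77 and 9.07, 16.2 and 18.7 CPM at E42 (-2.92, SE 0.36, adjusted p = 5.5e-07), and GLRA2 had 0.126, 0.481 and 1.48 CPM against 3.37, 4.98 and 6.57 CPM (-3.33, SE 0.28, adjusted p = 3.0e-10). In both genes every E77 library lay below every E42 library.

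A smaller set was higher at E77. GABRQ had 10.7, 26.1 and 44.8 CPM in the E77 terminal libraries and 1.86, 3.56 and 5.78 CPM at E42, with no overlap, a log2 difference of 2.80 (SE 0.22, adjusted p = 3.4e-10). GRIK4, encoding the GluK4 subunit, had 18.7, 30.0 and 48.3 CPM against 9.18, 10.6 and 15.9 CPM, also with no overlap (1.30, SE 0.10, adjusted p = 3.2e-11). GRIK2 had 33.3, 77.5 and 178 CPM against 11.9, 28.8 and 65.8 CPM, overlapping groups that differed by 1.34 (SE 0.24, adjusted p = 0.00011). Its E77 levels rested mostly on the Occipital series, and in the stem phase the GRIK2 difference of 1.98 (SE 0.25, adjusted p = 8.1e-07) was 0.54 (adjusted p = 0.20) between E77 Frontal and E42 Anterior alone. GABRB1 likewise differed by 1.58 (SE 0.21, adjusted p = 7.7e-07) in the stem phase and by 0.53 (adjusted p = 0.15) in that pair. The terminal difference of GABRB1 did not pass in that pair either (0.46, adjusted p = 0.19). In the posterior and occipital pair alone the stem differences of GRIN3A, 0.66 (adjusted p = 0.084), and GABRQ, 0.53 (adjusted p = 0.15), did not pass.

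Whether the change from stem to terminal itself differed by age was tested as an interaction. The change was larger at E77 for 10 members and smaller for 15, where 26.2% of all genes passed, 13% upward and 13.2% downward. With the posterior and occipital series alone, it was larger for 7 and smaller for 14. GRIN1 had the most negative difference of those that passed, -3.40 (SE 0.34, adjusted p = 1.3e-07), followed by GABRA4 at -2.49 (SE 0.55, adjusted p = 0.0021) and GRIK1 at -2.26 (SE 0.29, adjusted p = 4.7e-06). GRM3 rose more at E77 by 2.51 (SE 0.33, adjusted p = 1.2e-05) and GLRA3 by 1.76 (SE 0.30, adjusted p = 0.00013), each from a lower stem level. On log2(RPKM + 1) the GLRA3 difference was 0.12 (adjusted p = 0.57), and in the E42 Anterior and E77 Frontal pair alone it was 1.06 (adjusted p = 0.052). Among NMDA genes the change was smaller at E77 for 4 of 7 and larger for 0. The direction for GRM4 could not be settled, because its E77 stem groups held few reads and the sign changed between the count model and log2 RPKM values.

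Markers of cell types moved with age. Of 10 neuron markers 8 were lower and 0 higher at E77 in the terminal phase (median log2 difference -0.52), and 8 were lower and 1 higher in the stem phase (median -1.29). Summed excitatory neuron markers were 58.2 to 525 CPM (median 213) in the E42 terminal libraries and 15.9 to 32.8 CPM (median 21.1) at E77, with 6 of 6 markers lower at E77. Summed astrocyte markers were 1311 to 2187 CPM at E42 and 3649 to 9357 CPM at E77 (5 of 6 higher), and oligodendrocyte lineage markers 150 to 636 CPM and 470 to 3709 CPM (7 of 7 higher). Of 7 mesenchymal markers 6 were lower at E77 (median -6.99), with sums of 54.6 to 26318 CPM at E42, where Anterior stood apart, and 47.9 to 72.4 CPM at E77. Summed interneuron markers were 872 to 1038 CPM and 656 to 1142 CPM, microglia markers stayed at or below 1.28 CPM, and red blood cell markers at or below 0.057 CPM. The part of these cell types in the receptor differences was not tested.

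Between regions at E42 the terminal Anterior libraries were compared with Posterior, 3 against 3. Anterior was higher for 6 members, lower for 17, and 21 did not pass, where 35.8% of all genes passed, 17.3% upward and 18.5% downward. GRIN2C, the GluN2C gene, had 22.9, 29.5 and 25.0 CPM in Anterior and 3.16, 3.58 and 3.0 CPM in Posterior, groups well apart, with a log2 difference of 2.99 (SE 0.38, adjusted p = 1.1e-06). GRIK4 differed by 0.57 (SE 0.14, adjusted p = 0.0022), and GRIN2B by 1.27 (SE 0.30, adjusted p = 0.0022), although GRIN2B groups overlapped, at 101, 129 and 138 CPM against 21.6, 61.1 and 109 CPM. Without the day block the GRIN2B difference was 0.94 (adjusted p = 0.30). GRM7 was lower in Anterior, at 6.5, 7.27 and 7.93 CPM against 18.2, 27.1 and 34.2 CPM (-1.87, SE 0.28, adjusted p = 9.7e-06). GABRG3 at 3.52 to 5.41 CPM against 8.80 to 19.8 CPM (-1.60, SE 0.24, adjusted p = 1.0e-05), GABRA3 (-1.54, SE 0.28, adjusted p = 0.00010), GRM2 (-1.41, SE 0.20, adjusted p = 3.6e-06) and GABRQ (-1.28, SE 0.33, adjusted p = 0.0037) were also lower, each without overlap. GRIA2 was lower by 1.18 (SE 0.18, adjusted p = 1.4e-05), at 221 to 268 CPM against 442 to 663 CPM.

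Those calls at E42 rest on few libraries. GABRE (0.92, SE 0.35, adjusted p = 0.042) and GRIN2D (0.57, SE 0.18, adjusted p = 0.016) lost their call when the day block was left out (adjusted p = 0.13 and 0.052). GABRE also lost it without day 14 (adjusted p = 0.14) or 17 (0.18) of Anterior or day 14 (0.19) or 17 (0.29) of Posterior, and GRIN2D without day 17 of Anterior (0.082) or day 11 (0.059) or 17 (0.064) of Posterior. Leaving out day 17 of E42 Posterior left 3 members higher and 10 lower, leaving out day 17 of E42 Anterior 3 and 11, and leaving out day 14 of E42 Anterior left 11 lower. Mesenchymal markers, 16603 to 26318 CPM in the Anterior and 54.6 to 58.5 CPM in the Posterior terminal libraries, moved with this comparison. Summed excitatory neuron markers were 58.2 to 68.3 CPM in Anterior and 359 to 525 CPM in Posterior terminal libraries, with 5 of 6 markers lower in Anterior, and 4 of 10 neuron markers were lower and 0 higher. The part of these markers in the receptor differences was not tested.

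At E77 the terminal Frontal libraries were compared with Occipital, 4 against 4. Frontal was higher for 7 members, lower for 12, and 25 did not pass, where 13.6% of all genes passed, 7.93% upward and 5.67% downward. GRIN2C was higher in Frontal, as it was in Anterior at E42, with 8.73, 8.58, 7.05 and 10.6 CPM against 1.51, 1.72, 2.31 and 3.05 CPM (2.04, SE 0.34, adjusted p = 0.00011). GRIA1 was higher by 0.76 (SE 0.14, adjusted p = 0.00029), with 148 to 219 CPM against 72.2 to 143 CPM. GABRE, the epsilon subunit gene, was lower in Frontal, with 0.590, 0.584, 1.07 and 0.579 CPM against 2.60, 3.65, 7.90 and 9.07 CPM (-2.95, SE 0.31, adjusted p = 1.5e-07). In all these genes the groups did not overlap.

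GRIK2, encoding GluK2, had 36.4, 33.3, 38.2 and 37.4 CPM in Frontal and 177, 125, 117 and 121 CPM in Occipital terminal libraries, far apart (-1.92, SE 0.30, adjusted p = 7.9e-05). GRIA4 was 30.2 to 65.1 CPM in Frontal against 94.9 to 148 CPM (-1.39, SE 0.21, adjusted p = 4.0e-05) and GRM5 4.38 to 11.6 CPM against 12.1 to 25.2 CPM (-1.32, SE 0.26, adjusted p = 0.00066), both without overlap. GABRA3 was lower by 1.76 on the log2 scale (SE 0.28, adjusted p = 4.9e-05), in overlapping groups. GRIN1 (1.19, SE 0.29, adjusted p = 0.0047), GRM4 (1.01, SE 0.30, adjusted p = 0.023) and GRM3 (0.85, SE 0.22, adjusted p = 0.011) were higher in Frontal in the fit with the day as a block. Without the block none of the 3 passed (adjusted p = 0.39, 0.39 and 0.25), and GRM5 did not either (adjusted p = 0.093). GRM4 also lost its call without day 17 (adjusted p = 0.099) or 20 (0.072) of Frontal or day 11 (0.079) or 20 (0.070) of Occipital, and GRM3 without day 11 of Occipital (0.050). Leaving out that Occipital library of day 11 left 4 members higher. Oligodendrocyte lineage markers summed to 470 to 1340 CPM in Frontal and 1506 to 3709 CPM in Occipital terminal libraries, with 7 of 7 lower in Frontal. Excitatory neuron markers summed to 23.2 to 32.8 CPM and 15.9 to 19.0 CPM, with 3 of 6 higher in Frontal and 0 lower. Of 6 radial glia markers 3 were higher in Frontal and 1 lower, and of 10 neuron markers 1 was higher and 0 lower. The part of these markers in the region differences at E77 was not tested. Whether a region difference at E42 differed from that at E77 was not tested.

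**Figure D5:**
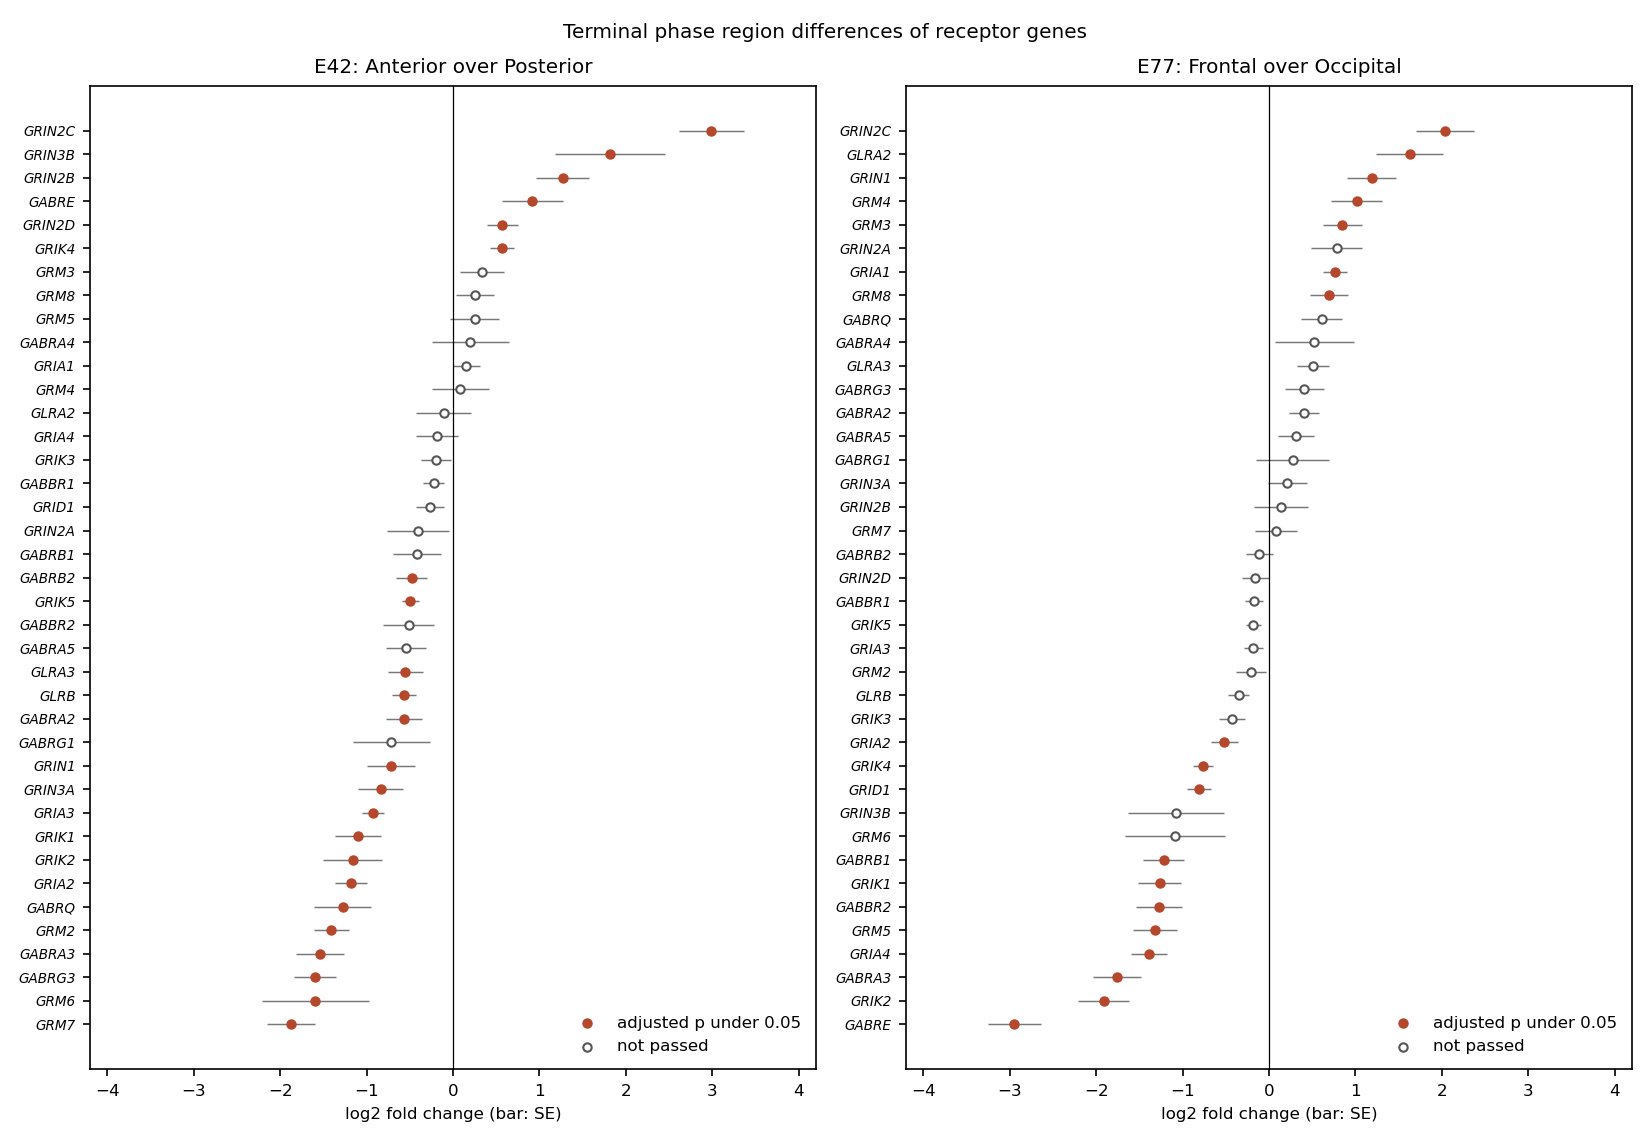
Log2 fold change with SE bars (horizontal) of 39 tested members in the terminal phase, Anterior over Posterior at E42 on the left and Frontal over Occipital at E77 on the right, each panel ordered by size; filled points passed at an adjusted p under 0.05. GRIN2C is the highest in both panels, and GRM7 at E42 and GABRE at E77 are the lowest.

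The genes around the receptors were described from lists of accessory and supply genes. Of 15 tested auxiliary subunits of AMPA and kainate receptors 11 rose from stem to terminal, 3 fell and 1 did not pass, and of 18 excitatory postsynaptic scaffold genes 15 rose, 1 fell and 2 did not pass. The calcium channel-like auxiliary subunit gene CACNG5 had a median of 3.90 CPM over the stem and 92.0 CPM over the terminal libraries (4.12, SE 0.33, adjusted p = 1.2e-11). GRIP1, which binds GluA2, had 12.8 and 118 CPM, with no overlap (3.36, SE 0.21, adjusted p = 1.0e-13). Of 12 inhibitory scaffold and auxiliary genes 9 rose, 1 fell and 2 did not pass, among them KCTD12, a GABA-B auxiliary subunit gene (4.63, SE 0.30, adjusted p = 2.0e-13). The medians of these 3 lists were 0.54, 0.70 and 0.26, against 0.00 for all genes, of which 62.4% passed, 31.9% upward and 30.4% downward.

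Transporters and enzymes for the transmitters were described in the same way. Of 13 glutamate supply and clearance genes 8 rose, 3 fell and 2 did not pass, and of 11 such genes for GABA and glycine 8 rose, 2 fell and 1 did not pass. The list medians were 0.32 and 0.85, to be read against the same shares and median of all genes. SLC32A1, the vesicular GABA and glycine transporter, rose by 2.81 (SE 0.40, adjusted p = 5.9e-07), and SLC6A9, a glycine uptake transporter, fell by 2.02 (SE 0.19, adjusted p = 2.4e-10). SLC12A5, which extrudes chloride, rose by 2.64 (SE 0.23, adjusted p = 2.6e-11), and SLC12A2, which imports it, fell by 1.15 (SE 0.14, adjusted p = 2.7e-08). ADARB2, of the RNA editing enzyme family but without known editing activity, rose by 5.24 (SE 0.31, adjusted p = 5.0e-14).

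At E77 several of these partners were lower than at E42 in the terminal phase. SLC17A7, the vesicular glutamate transporter of cortical excitatory neurons, had a lowest, median and highest level of 0, 0 and 0.169 CPM at E77 and of 6.52, 7.44 and 8.32 CPM at E42. SLC12A5 had 1.56, 3.15 and 4.40 CPM at E77 and 10.1, 19.1 and 26.5 CPM at E42 (-2.75, SE 0.13, adjusted p = 6.6e-15), again without overlap. Of the excitatory scaffold genes 13 of 18 were lower and 1 was higher (median -0.40), where 24.4% of all genes were lower and 20.6% higher (median -0.02), with DLGAP2 at -3.11 (SE 0.20, adjusted p = 2.9e-12). Of the 15 AMPA and kainate auxiliary genes 6 were lower and 3 higher (median -0.16), with CACNG8 lower at 1.13 to 3.12 CPM against 13.7 to 31.3 CPM (-3.19, SE 0.17, adjusted p = 7.2e-14) and CNIH3 higher at 44.5 to 73.1 CPM against 7.58 to 15.8 CPM (2.24, SE 0.14, adjusted p = 2.1e-12). SLC32A1 differed by 0.18 (SE 0.28, adjusted p = 0.65).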

How the data were processed

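Read counts and RPKM values per gene were deposited by the authors in 2 tables of 34619 genes and 38 libraries. Per the submitters' processing notes STAR and featureCounts were used (versions not listed), and the genome build, the annotation and the strand setting are not given in the sources used here. The deposited counts were raw whole numbers, and the authors' RPKM values scale them by gene length and library total. Libraries were checked for duplicates over 703 pairs, and the lowest difference was 10.21 times counting noise.

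edgeR 4.0.16 (R 4.3.3) was run on the counts: genes passed filterByExpr across 12 groups of series and phase (20794 genes tested), TMM factors (0.899 to 1.104), and robust quasi-likelihood tests on all 38 libraries. The filter was passed by 44 of the 52 members. Phase comparisons used group means (26 residual degrees of freedom). Each day belongs to 1 phase, so no day term could be fitted there, and same-day libraries of different series were treated as independent. For age, region and interaction, culture day entered as a block, which left 19 residual degrees of freedom, since equal replicate numbers in the labels are equal days. Same-day deviations from group means correlated over 0.1 in 44 of 55 pairs (-0.1 to 0.68, median 0.22). The p-values of phase comparisons averaged over series take no account of this correlation and may be too small. Benjamini-Hochberg adjustment covered every tested gene, with a threshold of 0.05. The method was tested on simulated libraries that were independent and had no day, series or fetus effect. That simulation cannot show how such effects act on the age and region comparisons.

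CPM are counts over the scaled total of tested genes. Folds against groups with 0 reads used a floor of 3 reads per library and are lower bounds. Named members were the highest by mean RPKM in each class (6 in GABA-A, 2 in the others), the 8 largest passing changes each way over phases and the 5 largest each way for age, interaction and region, reaching 1 CPM. Up to 3 passing genes were taken from each list of partner genes. Other members are given for completeness of a class. Some genes are not reported here by name, and they stay in the counts. The members, lists and comparisons were chosen with earlier results of these data known. RefSeq served for names and overlaps only.

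Alternatives were DESeq2 size factors, no filter, the DESeq2 1.42.0 Wald test, limma 3.58.1 on log2(RPKM + 1) and log2(RPKM + 0.1) (17827 genes reaching an RPKM of 1 in 3 or more libraries, 39 members), 1 value per day, subsets of days or series, no block, and each library left out.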

Additional observations from a re-analysis of the deposited data

Results flagged for a closer look

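In 2 of the 76 groups of 4 libraries checked, 1 library stood away from the others beyond Dixon's 95% limit, and chance flags about 1 group in 20. In E77 Frontal terminal libraries GABRE reached 1.074 CPM on day 17 while the other days lay at 0.579 to 0.590 CPM. In E77 Occipital terminal libraries GRIK2 reached 177.5 CPM on day 11 while the later days lay at 117 to 125 CPM.

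The change from stem to terminal differed between the ages, by a test of the difference itself, for 8 of the named members. GRM3 rose more at E77 by 2.51 on the log2 scale, GLRA3 by 1.76, and GABRQ moved by 1.54 more in the upward direction. The change at E77 was smaller or opposite for GRIN1 by -3.40, GABRA4 by -2.49, GRIK1 by -2.26, GRIN2C by -1.71 and GRIN3A by -1.69. On log2(RPKM + 1) GLRA3 was 0.12 (adjusted p = 0.57). In the E42 Anterior and E77 Frontal pair alone GLRA3 (1.06, adjusted p = 0.052), GABRA4 (-1.29, adjusted p = 0.27) and GRIN2C (-1.17, adjusted p = 0.11) did not pass. GRM4 is not listed here because its E77 stem groups had too few reads.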

How the results depend on the processing

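Counts of members called in the 12 comparisons came out within 1.5 times the reported count in 171 recalculations under other settings and 327 with 1 library left out, and outside it in 13 and 9, which follow. Members lower in E42 Posterior, reported as 0, numbered 1 with DESeq2 size factors, 1 without the low-count filter, 1 by the DESeq2 Wald test and 3 with the stem phase without day 1, and 0 to 1 with a library left out (1 without stem day 1, terminal day 11 or terminal day 17). Without the replicate block the E42 region comparison gave 2 higher and 10 lower, and the E77 region comparison 3 higher. On log2(RPKM + 1) the E42 region comparison gave 3 higher, E77 Occipital terminal against stem 3 lower, age in the stem phase 13 lower and the age difference of the change 3 larger. With 1 value per day, averaged over series, 0 members were lower in the transition than the stem phase, and 2 in the terminal phase than the transition. With a library left out the E42 region comparison gave 3 to 6 higher and 10 to 16 lower, and the E77 region comparison 4 to 7 higher. The cause was not tested.

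The sign of the age difference of the change turned for GRM4, to -0.43 on log2(RPKM + 1). This gene had few reads in E77 stem libraries, where the fitted fold depends on the model. Values of the named members kept direction and call in 548 recalculations, lost the call in 32, gained it in 6 and turned in 1. All 6 gains were of GABRQ in the average over series, and GABRB1 in that average lost its call under most settings. GRM8 (adjusted p = 0.19) and GRIN2D (0.15) lost theirs with 1 value per day.

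Depth limits members under about 1 CPM, and the 8 untested members had at most 12 reads in any library. Days of 1 culture are not independent animals, so spread between fetuses is unknown. RPKM shares depend on the deposited gene lengths.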
